A study of Mus musculus with 4 samples.

Results

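The genes that encode receptors for GABA, glycine and glutamate were examined in the ears of mice exposed to diesel exhaust particles (DEPs), the soot fraction of diesel exhaust. Members were found by symbol through the RefSeq accession of each probe, and took in every subunit named Gabr, Gabbr, Glra, Glrb, Gria, Grid, Grik, Grin or Grm. The array held 52 such genes with 76 of its 39429 probes, and 44 of the 52 genes had a ratio on at least 3 arrays and entered the test. Each of 4 two-colour arrays set 1 extract of DEP-exposed ear, in the red dye Cy5, against 1 extract of control ear, in the green dye Cy3, as the source names of the channels give them. The study used 9 male BALB/c mice aged 6 to 10 weeks, exposed by inhalation for 1 h per day on 5 days and killed on day 14, and the area of the temporal bone with the middle ear was taken. The labels call the arrays biological replicates, but neither the number of mice behind each extract nor the handling of the control mice is given in the sources used here. The p-values therefore measure the spread between these 4 arrays. Both treatment entries of an array stand under Cy5 in the labels and none under Cy3, so the channels were taken from the source names, and since the dyes were never exchanged, a dye preference and the exposure cannot be told apart.

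Neurons use these receptors to read the transmitters that other neurons release. GABA-A and glycine receptors are chloride channels that quiet the cell, and GABA-B receptors do so more slowly through G proteins. AMPA, kainate and NMDA receptors are glutamate-gated cation channels that excite the cell, and metabotropic glutamate receptors tune this traffic through G proteins. The subunit makeup differs between regions: granule cells of the cerebellum use alpha 6 and delta subunits of the GABA-A receptor and the 2C subunit of the NMDA receptor, whereas rho and pi subunits belong mainly to the retina and to tissues outside the nervous system. In the ear, glutamate carries the signal from the inner hair cells to the auditory nerve.

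The ratio of the DEP channel to the control channel is given on the log2 scale, where -1 means a signal 2-fold lower in the channel labelled DEP, and every mean ratio is over arrays with its SD. Tests were limma's moderated test on 31577 probes, and adjusted p-values are Benjamini-Hochberg values over all of them. Across all genes the ratios of arrays 1 and 2 correlated with r = 0.61, those of arrays 1 and 3 with r = 0.38, and those of arrays 1 and 4 with r = -0.22, so that array 4 stood apart from array 1. The control extracts of arrays 1 and 2 also had a higher summed signal than the other 6 extracts for the marker lists of neurons, cerebellum, forebrain and astrocytes. For central myelin this held for array 1, and array 2 (22551) lay below the control extract of array 3 (24725). All 4 arrays lay on 1 slide, so no batch could be tested. Markers of the labelled tissue were present: all 8 markers of middle ear and airway epithelium, and all 6 of skeletal muscle, were detected in both channels of every array. A signal is called detected here where the scanner software set it well above background.

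In these extracts most of the receptor genes had less signal in the channel labelled DEP, on 3 of the 4 arrays. The study lists Gabbr2, Grik2, Grm5 and the glutamate transporter gene Slc1a2 among genes with increased expression, and the source names give the mean ratios of these genes here the opposite sign. For Grm5 that mean was small at the brightest probe, with ratios on both sides of 0. For Grik2 no array had both channels above background. An exchange of the channel names in the deposit was not tested. With the names exchanged every sign below would turn, giving 38 of the 44 receptor genes a mean ratio above 0, 20 past 2-fold on the higher side and 2 on the lower, a median of 0.92, and extracts called control here would be those of DEP-exposed ears. With the source names as given, a mean ratio below 0 was found for 38 of the 44 tested, and the median of their mean ratios was -0.92, against 0.03 over all 25679 genes tested. The median over the receptor genes was -2.10 on array 1, -1.87 on array 2 and -0.47 on array 3, but 0.29 on array 4, while the median of all genes lay between -0.02 and 0.08 on every array. The sign of the median was thus turned on the fourth array.

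A mean ratio past 2-fold on the lower side was found for 20 receptor genes, where 4.37% of all genes tested lay past it. Of these 20, 12 were detected in both channels on all arrays and 7 in both channels but not on every array. The other gene, Gria2, was detected only in the control channel. On the higher side 2 lay past 2-fold, Gabrr3 and Grm6, with 2.38% of all genes, and neither was detected in any extract. After normexp background correction the counts on the lower side were 10 with loess and 9 with median centring, where 1.44% and 0.857% of all genes lay past 2-fold, and 0 on the higher side. An unadjusted p under 0.05 was reached by 12 receptor genes with a lower ratio, with 8.64% of all genes, and by 3 with a higher ratio, with 10% of all genes. Of the 39 receptor genes with 4 ratios, 6 lay below 0 on all 4 arrays, against 11.5% of all genes, and 3 lay above 0 on all 4, against 17.2%. No receptor gene passed after adjustment, and the share of all genes that did was 0%, with a smallest adjusted p of 0.0922 over all probes, 0.107 over all receptor probes and 0.112 over the brightest probe of each receptor gene. With 4 ratios, an exact two-sided sign-flip test of 1 gene cannot give a p below 0.125.

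These counts also depended on single arrays. With 1 array left out a gene needed 2 ratios, so the number of receptor genes tested could change. Without array 4, 33 of 49 receptor genes lay past 2-fold on the lower side, where 6.10% of all genes did. A lower ratio with an unadjusted p under 0.05 was found for 30, where 9.98% of all genes did. Without array 1 these counts were 14 and 4 of 44, where 3.66% and 7.02% of all genes did. Without array 2 they were 16 and 4 of 46, where 4.08% and 5.67% did. In the latter 2 cases the count by p was near the share over all genes. The number with an adjusted p under 0.05 was 0 with any 1 array left out.

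Whether a receptor could be followed depended on its signal. All 8 extracts showed 21 of the 52 genes, called fully measured below, and a further 16 were detected in both channels but not on every array. Another 6 genes were detected only in the control channel (Gabra5, Glra1, Gria1, Gria2, Grin2d and Grm3), and 1 only in the DEP channel (Gabrg3). The remaining 8 were detected in no extract (Gabre, Gabrq, Gabrr3, Glra2, Glra3, Glra4, Grid1 and Grm6). Of the 52 genes, the control channel held 43, 40, 26 and 22 above background on arrays 1 to 4, while the DEP channel held 30, 30, 33 and 30. Over all probes of the array the shares above background were 68.0, 66.7, 59.2 and 60.3% in the control channel and 65.4, 67.0, 68.9 and 66.5% in the DEP channel. The number of detected receptor genes was thus lower in the control extracts of arrays 3 and 4, where the share over all probes was lower too, and neither varied much between the DEP extracts. The lowest signal called well above background was 23.3, 20.8, 36.5 and 32.1 in the control channel on arrays 1 to 4. In the DEP channel it was 31.1, 20.2, 16.0 and 19.2. A dim gene could therefore be called in the DEP channel and not in the control channel on arrays 3 and 4. The part of this floor in the counts was not tested.

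**Figure D1:**
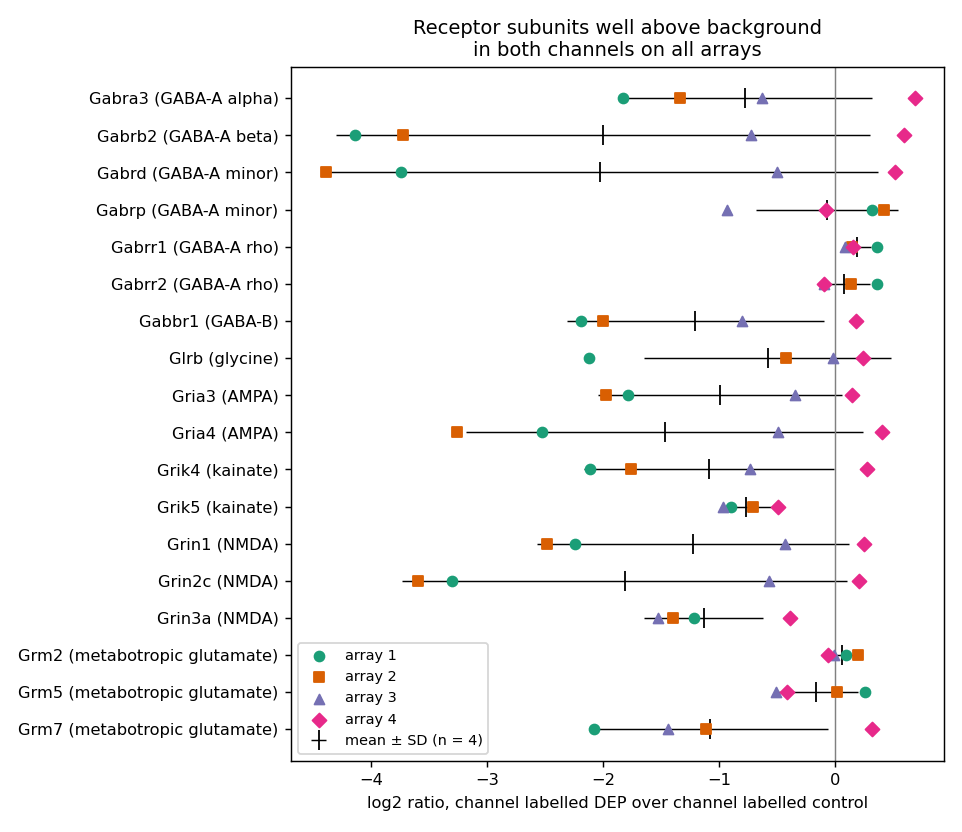
Log2 ratio (DEP over control channel) for 18 of the 21 fully measured receptor genes, with 1 symbol for each of 4 arrays and a bar for the mean ± SD. Most genes have their lowest ratios on arrays 1 and 2 and lie above 0 on array 4, whereas Grik5 and Grin3a lie below 0 on all 4 arrays and Gabrr1, Gabrr2 and Grm2 stay near 0.

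Split by channel, the signals showed where the difference between arrays lay. The summed signal of the 21 fully measured receptor genes in the control channel was 33535, 23467, 6859 and 4246 on arrays 1 to 4, in the scanner's units after dye normalisation. In the DEP channel it was 6793, 5031, 4606 and 4503. The control extracts of arrays 1 and 2 therefore stood above all other extracts, and the control extract of array 4 stood below every DEP extract. The median signal of all probes varied far less, from 94.2 to 142 over the 8 extracts. After scaling each extract to its own median, 10 of the 21 genes differed by more than 4-fold between their highest and lowest control extract, where 4.25% of the 18341 genes measured in the same way did. In the DEP extracts 0 of the 21 did, where 3.36% of genes did. This 4-fold measure was chosen after the values were seen. Without array 4 the control count was 7, and with any other array left out it was 9 or 10.

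Gabra6 and Gabrd belong to the GABA-A receptor of cerebellar granule cells and differed widely between control extracts. Gabra6 encodes the alpha 6 subunit, which marks these cells, and it was named after its values were seen because no other gene of the table had a lower mean ratio. Its control signals were 5460.3, 3790.3, 136 and 7.85 on arrays 1 to 4, and its DEP signals were 158, 26.6, 115 and 5.77. Both signals of array 4 were not well above background, and that array gave no ratio. The ratios of arrays 1 to 3 were -5.11, -7.16 and -0.24, with a mean of -4.17 ± 3.55 (SD, n = 3) and an adjusted p of 0.263. The first 2 arrays carried this mean: on array 3 the ratio was near 0 and 6584 genes had a lower one. Over arrays 1 to 3 alone, where 26548 genes could be compared, 3 genes had a lower mean ratio.

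Gabrd encodes the delta subunit, which pairs with alpha 6 outside the synapse and gives a lasting inhibition. Its control signals were 5363, 3554, 223 and 98.1 and its DEP signals 401, 169, 157 and 139.7, so the control extracts of arrays 1 to 3 lay above their DEP partners and that of array 4 lay below. The ratios were -3.74, -4.39, -0.50 and 0.51, with a mean of -2.03 ± 2.40 (SD, n = 4) and an adjusted p of 0.319. Gabrd had the widest control range of the 21 genes, 36.8-fold between extracts after scaling, against 1.91-fold between DEP extracts.

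Gabrb2 encodes the beta 2 subunit, which is common in GABA-A receptors of the adult brain. Its control signals were 4069.7, 2746, 283 and 99.5 and its DEP signals 231, 207, 171 and 149.6. The ratios were -4.14, -3.73, -0.73 and 0.59 and the mean was -2.00 ± 2.30 (SD, n = 4), with an adjusted p of 0.309. The DEP extracts of Gabrb2 lay within 1.23-fold of each other after scaling, and the control extracts within 27.5-fold. The groups of extracts overlapped, because the control extract of array 4 was the lowest of the 8.

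Some GABA-A subunit genes lie side by side in the genome. Gabrg1, Gabra2, Gabra4 and Gabrb1 are neighbours on chromosome 5, with 1 other protein-coding gene among them in the RefSeq annotation, and had means from -2.01 to -0.77. The rho subunit genes Gabrr2 and Gabrr1, which are neighbours on chromosome 4, had means of 0.07 and 0.18.

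The sequence upstream of 4 genes is shown to set Gabra6 and Grin2c, cerebellar subunits with a wide range between control extracts, beside Gabrr2 and Grm2, whose signals stayed level. Each is the 250 bases before the annotated start in RefSeq on the gene's strand, from build GRCm38.p6, read 5′ to 3′. The windows are chr11:42321073-42321322 (minus strand), chr11:115267244-115267493 (minus), chr4:33062862-33063111 (plus) and chr9:106656110-106656359 (minus). Capitals mark matches, on either strand, to TTGGCA (a core site of nuclear factor I, a factor of maturing granule cells), GGGCGG (the GC box of Sp1) or TTCAGCACC (the left part of the RE1 element, by which REST holds neuronal genes silent elsewhere).
Gabra6: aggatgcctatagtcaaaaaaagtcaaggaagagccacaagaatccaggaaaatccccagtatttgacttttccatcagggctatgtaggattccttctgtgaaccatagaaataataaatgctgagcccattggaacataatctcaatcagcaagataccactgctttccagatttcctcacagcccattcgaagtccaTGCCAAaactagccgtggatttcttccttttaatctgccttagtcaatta
Grin2c: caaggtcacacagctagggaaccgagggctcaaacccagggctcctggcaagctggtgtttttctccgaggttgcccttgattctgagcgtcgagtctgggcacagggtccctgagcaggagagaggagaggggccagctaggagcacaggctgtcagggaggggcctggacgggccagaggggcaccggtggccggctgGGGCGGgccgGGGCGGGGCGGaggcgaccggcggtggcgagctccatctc
Gabrr2: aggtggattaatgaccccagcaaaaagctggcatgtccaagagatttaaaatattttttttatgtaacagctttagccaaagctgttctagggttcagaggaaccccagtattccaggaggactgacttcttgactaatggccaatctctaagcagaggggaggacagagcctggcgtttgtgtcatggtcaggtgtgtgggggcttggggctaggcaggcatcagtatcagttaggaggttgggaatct
Grm2: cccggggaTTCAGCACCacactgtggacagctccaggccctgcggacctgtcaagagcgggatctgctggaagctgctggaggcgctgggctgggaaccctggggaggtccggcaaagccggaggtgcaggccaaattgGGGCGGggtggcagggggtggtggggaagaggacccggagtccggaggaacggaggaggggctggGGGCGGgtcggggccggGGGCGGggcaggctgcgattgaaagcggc

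The Gabra6 window held 1 match to TTGGCA, read on the opposite strand as TGCCAA, and 2 CpG dinucleotides at 40.8% G and C. Grin2c held 3 GC boxes, of which the last 2 overlap, and 15 CpG at 68.8% G and C. Grm2 held 3 GC boxes and the match to TTCAGCACC, with 16 CpG at 71.2% G and C. Gabrr2 held none of the 3 motifs and 1 CpG. Among all 32851 windows of the same length the median was 6 CpG, and TTGGCA occurred in 12.28%, GGGCGG in 32.74% and TTCAGCACC in 0.3014%. A window was found for 36 of the 52 receptor genes, of which 4 held TTGGCA, 20 held GGGCGG and 1 held TTCAGCACC. These are matches of letters and not sites of binding.

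**Figure D2:**
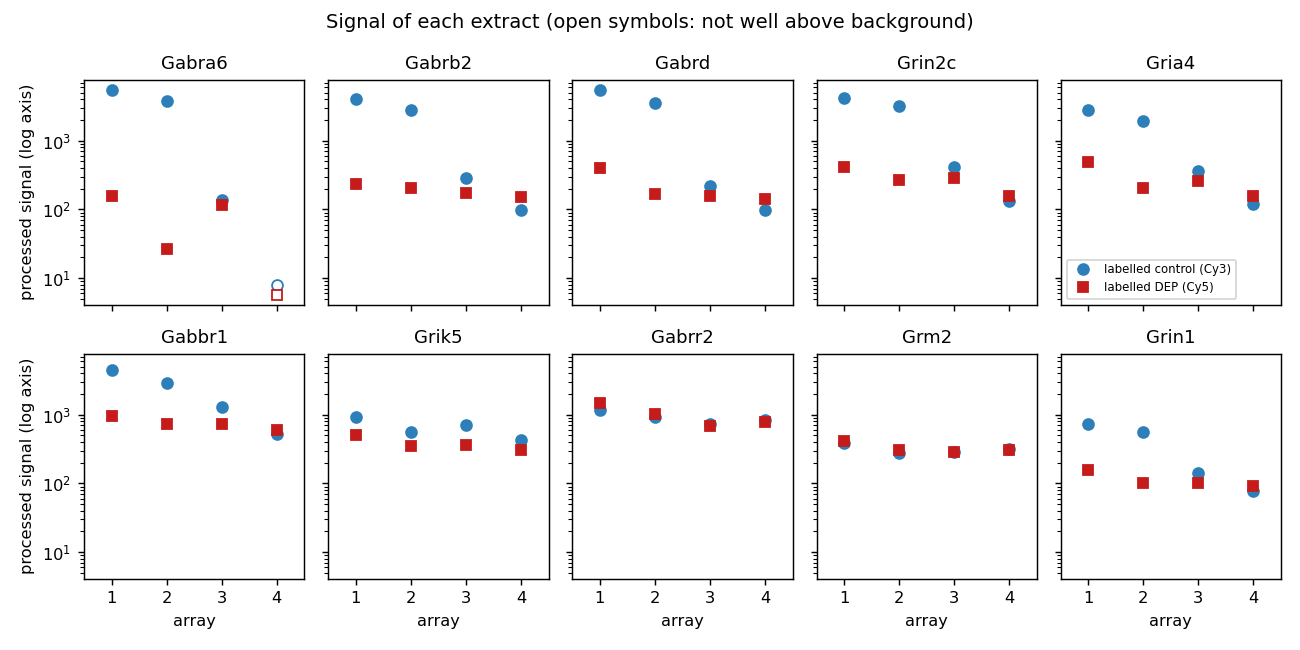
Dye-normalised signal (log axis) of 10 receptor genes in the control channel (circles) and the DEP channel (squares) of arrays 1 to 4, with open symbols where a signal was not well above background. In Gabra6, Gabrb2, Gabrd, Grin2c and Gria4 the control signal spans more than a factor of 10 between arrays while the DEP signals of those measured on all arrays span at most 3.05-fold, and in Gabrr2 and Grm2 both channels span at most 2.19-fold.

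Gabra2 encodes the alpha 2 subunit of forebrain synapses, and its DEP channel was above background on all arrays while its control channel was so on 2. The ratios of Gabra2 were -3.13, -2.67, -0.16 and 0.92, with a mean of -1.26 ± 1.95 (SD, n = 4) and an adjusted p of 0.418. Gabra3 encodes the alpha 3 subunit of brainstem and monoamine neurons, and its ratios were -1.83, -1.34, -0.63 and 0.68, with a mean of -0.78 ± 1.09 (SD, n = 4) and an adjusted p of 0.385. All 6 alpha subunits tested had a mean below 0, with a median of -1.097. The 3 beta subunits, without which the channel does not assemble, had a median of -2.01, all below 0. After normexp correction with loess and with median centring the medians were -0.70 and -0.81 for the alpha and -0.76 and -0.88 for the beta subunits. Among the gamma subunits the means were below and above 0, with Gabrg1 at -0.77 and Gabrg3 at 0.72. No array had both channels of Gabrg1 above background. Gabrg3 was above 0 on all 4 arrays, with an adjusted p of 0.125, but its signals of 13.1 to 36.8 in the DEP channel were near background, and its mean was -0.06 after normexp background correction with median centring.

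The subunits of the retina and of tissues outside the nervous system did not share this pattern. Gabrr1 and Gabrr2 encode the rho 1 and rho 2 subunits, which form slow GABA channels in the bipolar cells of the retina. The Gabrr2 control signals were 1155, 936, 724 and 843 and the DEP signals 1479, 1029.9, 675 and 786, so the groups overlapped. Its ratios were 0.36, 0.14, -0.10 and -0.10, with a mean of 0.07 ± 0.22 (SD, n = 4) and an adjusted p of 0.776. Gabrr1 had ratios of 0.36, 0.14, 0.08 and 0.15, with a mean of 0.18 ± 0.12 (SD, n = 4) and an adjusted p of 0.404. Gabrp encodes the pi subunit of epithelia such as uterus and airway, and its ratios were 0.31, 0.41, -0.93 and -0.08, with a mean of -0.07 ± 0.61 (SD, n = 4) and an adjusted p of 0.895. The sign of the Gabrr2 mean was turned without array 1 and that of Gabrp without array 3, at -0.021 and 0.22. Over the 5 genes of this kind with a test, Gabrp, Gabrr1, Gabrr2, Gabrr3 and Grm6, the median of the mean ratios was 0.18, and 1 of the 5 was below 0. Gabre and Gabrq, which encode the epsilon and theta subunits, were not above background and were not tested.

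GABA-B receptors act as a pair of 2 proteins, Gabbr1, which binds GABA, and Gabbr2, which carries the signal to the G protein. Gabbr1 had control signals of 4435, 2924, 1297 and 529.7 and DEP signals of 969, 729.8, 741 and 597. Its ratios were -2.19, -2.00, -0.81 and 0.17, with a mean of -1.21 ± 1.11 (SD, n = 4) and an adjusted p of 0.254. Gabbr2 had ratios of -3.29, -2.35, -1.23 and -0.65, below 0 on all 4 arrays, with a mean of -1.88 ± 1.18 (SD, n = 4) and an adjusted p of 0.170. Its signals were low, 144, 134, 50.1 and 43.2 in the control channel and 14.7, 26.3, 21.4 and 27.6 in the DEP channel, and the DEP channel was well above background on 3 arrays. The Gabbr2 mean was -0.79 after normexp correction with loess and -0.89 with median centring. Each control extract lay above every DEP extract for Gabbr2. Of the 44 receptor genes tested, 2 had groups of extracts that did not overlap with the control extracts higher, Gabbr2 and Grin3a, where 2.18% of all genes tested did. With the DEP extracts higher there were 0, where 1.69% of all genes did.

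Glycine receptors carry inhibition in the spinal cord and brainstem, including the auditory relay nuclei. Glrb, the beta subunit that binds gephyrin, was the only fully measured subunit of this class, with control signals of 1295, 799, 539.6 and 424 and DEP signals of 297, 594, 532 and 501. Its ratios were -2.12, -0.43, -0.02 and 0.24, with a mean of -0.58 ± 1.06 (SD, n = 4) and an adjusted p of 0.490. The mean rested on array 1, and without that array it was -0.07. Of the alpha subunits that bind glycine, Glra1 had a ratio on 2 arrays, Glra2 on 1 and Glra3 on 0, and Glra4 was tested with a mean of -0.15 from signals at background.

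AMPA receptors carry fast excitation. Gria4, whose subunit is prominent in the auditory brainstem and in cerebellar glia, had control signals of 2801, 1939, 366 and 121 and DEP signals of 485, 202, 259 and 159. The ratios were -2.53, -3.26, -0.50 and 0.40, with a mean of -1.47 ± 1.71 (SD, n = 4) and an adjusted p of 0.315. Gria3 had ratios of -1.79, -1.98, -0.35 and 0.14, with a mean of -0.99 ± 1.05 (SD, n = 4) and an adjusted p of 0.293. Gria1 and Gria2, the subunits common in forebrain neurons, were above background only in the control channel. The Gria2 control signals were 67.0, 25.4, 7.59 and 12.4, and those of Gria1 were 215, 143, 9.08 and 8.02. The control signals of both genes were above background on arrays 1 and 2 and the DEP signals on none, so no fold is given for them. Gria2 had 3 ratios and is still counted above among the genes past 2-fold and those with an unadjusted p under 0.05. Of the delta receptors, which bind cerebellins rather than glutamate, Grid1 was detected in no extract.

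Kainate receptors modulate release and excitability. Grik5 encodes the high-affinity subunit KA2, which needs a partner to form a channel. Its control signals were 930.5, 566, 696 and 429 and its DEP signals 499, 346, 356 and 304, each array having the higher signal in the control channel. The ratios were -0.90, -0.71, -0.97 and -0.50, with a mean of -0.77 ± 0.21 (SD, n = 4). This was the narrowest spread among the genes below 0 on all 4 arrays, and the adjusted p of 0.112 was the lowest among the brightest probes of the receptor genes. The groups overlapped all the same, since the control extract of array 4 lay below the DEP extract of array 1. Grik4, which encodes the related KA1, had ratios of -2.12, -1.76, -0.74 and 0.27, with a mean of -1.09 ± 1.08 (SD, n = 4) and an adjusted p of 0.275. Grik2 had ratios of -1.31, -1.43, 0.74 and -0.83, with a mean of -0.71 ± 1.00 (SD, n = 4) and an adjusted p of 0.390, from signals of 68.3, 52.6, 15.3 and 21.8 in the control channel and 27.5, 19.5, 25.6 and 12.3 in the DEP channel. It forms the core of most kainate receptors, and here no array had both of its channels above background. The Grik2 mean was -0.18 after normexp correction with loess and -0.35 with median centring. With Grik1 at -1.13 and Grik3 at -0.67, all 5 kainate genes lay below 0, with a median of -0.77 that was -0.63 and -0.44 under the 2 normexp settings.

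NMDA receptors need Grin1 in every channel and take their properties from the other subunits. Grin1 had control signals of 734, 561, 139.6 and 78.7 on arrays 1 to 4, whereas its DEP signals lay between 93.2 and 155. Its ratios were -2.24, -2.49, -0.44 and 0.24. Its mean was -1.23 ± 1.34 (SD, n = 4), with an adjusted p of 0.299. Grin2c, the subunit of adult granule cells, had control signals of 4147, 3205, 419.8 and 134 and DEP signals of 420.3, 266, 282 and 154. The ratios of Grin2c were -3.30, -3.59, -0.57 and 0.20, with a mean of -1.82 ± 1.91 (SD, n = 4) and an adjusted p of 0.286. Grin2b, the forebrain and juvenile subunit, was below 0 on all 4 arrays with a mean of -0.78 ± 0.54 (SD, n = 4), and Grin2a, its adult counterpart, had a mean of -0.15 ± 0.57 (SD, n = 4). Neither was fully measured, and no array had both channels of Grin2b above background.

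Grin3a encodes a glycine-binding subunit that lowers the calcium flow of the receptor. Its control signals were 176, 101, 145 and 120.1 and its DEP signals 75.8, 38.2, 50.3 and 91.6. The ratios were -1.22, -1.40, -1.53 and -0.39, with a mean of -1.13 ± 0.51 (SD, n = 4) and an adjusted p of 0.135. Every control extract of Grin3a lay above every DEP extract, and the control extracts varied less than for Grin1 or Grin2c. Grin3b, the related subunit of motor neurons, had a mean of -0.76 ± 0.56 (SD, n = 4). All 6 tested NMDA genes had a mean below 0, with a median of -0.96 that was -0.42 and -0.49 under the 2 normexp settings, and Grin2d had a ratio on 2 arrays only.

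The metabotropic glutamate receptors were divided. Grm4, the receptor at granule cell terminals, had a mean of -1.81 ± 1.47 (SD, n = 4) and was below 0 on all 4 arrays, but was not fully measured. Grm7, a receptor of presynaptic active zones, had ratios of -2.08, -1.11, -1.45 and 0.31, with a mean of -1.08 ± 1.01 (SD, n = 4) and an adjusted p of 0.259. Its control extract of array 3 was the highest, at 339.9, which differs from the order seen in the cerebellar subunits. Grm2, a presynaptic autoreceptor, was level in both channels, with control signals of 389, 273, 286 and 319 and DEP signals of 415, 311, 284 and 305. Its ratios were 0.09, 0.19, -0.01 and -0.06, with a mean of 0.05 ± 0.11 (SD, n = 4) and an adjusted p of 0.807, and the mean was -0.024 after normexp correction with loess. Grm5, a postsynaptic receptor of the forebrain, had ratios of 0.26, 0.02, -0.51 and -0.42 at its brightest probe, with a mean of -0.17 ± 0.36 (SD, n = 4) and an adjusted p of 0.619. Grm8, a presynaptic receptor, had a mean of -0.37 ± 0.97 (SD, n = 4), and Grm3, which astrocytes also carry, had a ratio on 2 arrays.

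Where a gene had more than 1 probe with a test, the probes could be set against each other. There were 12 such genes, and in all 12 the mean ratios of the probes shared their sign. Gabbr1 had 3 fully measured probes, with means of -1.21 ± 1.11, -1.74 ± 1.06 and -1.46 ± 0.71. The 3 adjusted p-values of Gabbr1 were 0.254, 0.167 and 0.138. The probes of Grm5 differed in size: the brightest, designed to NM_001081414, had a mean of -0.17 ± 0.36, and the other 2, designed to NM_001143834, had means of -1.71 ± 1.73 and -1.51 ± 0.50. The latter 2 had adjusted p-values of 0.276 and 0.107, and neither was fully measured. Both accessions name transcripts of Grm5, so the value of this gene depends on the probe. The probes of Grm4 also lay apart, at -1.81 ± 1.47 and -0.36 ± 0.93.

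**Figure D3:**
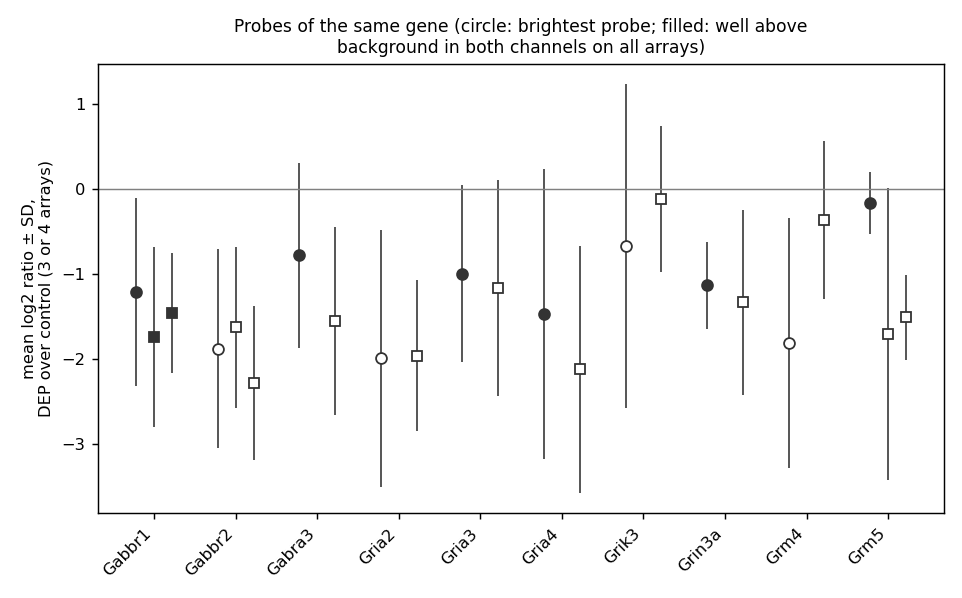
Mean log2 ratio (channel labelled DEP over control) ± SD over 3 or 4 arrays for each tested probe of 10 of the 12 receptor genes with more than 1, with a circle for the brightest probe, squares for the others and filled symbols for fully measured probes. All probes of a gene lie on the same side of 0, and those of Grm4 and Grm5 lie apart in size.

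Grouped by receptor class, the GABA receptor genes had a median of -1.21 with 15 of 19 below 0, and array medians of -2.77, -2.35, -0.57 and 0.64. The ionotropic glutamate receptor genes had a median of -0.90 with 16 of 16 below 0, and array medians of -1.62, -1.76, -0.47 and 0.19. The metabotropic receptors had a median of -0.37 with 5 of 7 below 0, and it was -1.12 without array 4 and -1.08 when the probes of a gene were averaged. Both tested glycine receptor genes were below 0, with a median of -0.37. After normexp correction, with loess and with median centring, the medians were -0.76 and -0.82 for GABA, -0.50 and -0.50 for ionotropic glutamate and -0.57 and -0.57 for all receptor genes tested. The signs of the 4 class medians were kept under each of the 3 other scalings of the arrays. Differences between the classes were not tested.

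Grouped instead by the place where a subunit is known to be rich, the 6 cerebellar genes, among them Gabra6, Gabrd, Grin2c and Grm4, had a median of -1.81 and array medians of -3.06, -3.60, -0.43 and 0.17. The 4 forebrain genes (Gabra2, Gabra5, Grin2b and Grm5) had a median of -0.86 and array medians of -2.05, -1.26, -0.51 and 0.29. After normexp correction the medians, with loess and with median centring, were -0.22 and -0.37 for the forebrain genes and -1.46 and -1.36 for the cerebellar genes. For the 5 genes of retina or tissues outside the nervous system the array medians were 0.36, 0.41, -0.01 and 0.15. The cerebellar genes thus had the lowest medians of the 3 sets on arrays 1 and 2, and all 3 medians lay between 0.15 and 0.29 on array 4. These sets were drawn from background knowledge with earlier results known, and differences between them were not tested.

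Markers of cell types and regions, none of them receptor genes, moved with these values on the same arrays. The 11 cerebellar markers tested had a median of -1.42, all below 0, with array medians of -2.55, -3.16, -0.15 and 0.24. The summed signal of all 12 on the array ranged from 56689.6 to 333740.0 in the control extracts and from 55867 to 134048 in the DEP extracts, with most of it from Pvalb, which skeletal muscle also expresses. Without Pvalb the sums were 5076 to 100533 and 5388 to 15005. The 12 neuronal markers had a median of -0.93, all below 0, with array medians of -2.11, -1.09, -0.77 and 0.34 and summed signals of 27699 to 94953 in the control and 23457 to 37232 in the DEP extracts. All 12 were detected in every extract, as were the 8 markers of astrocytes, the supporting glia of the brain. The 8 astrocyte markers had array medians of -2.37, -0.85, -0.11 and 0.14, and their summed signal ranged from 39934 to 233947 in the control and from 45054 to 55393 in the DEP extracts. Of the 10 forebrain markers, 9 lay below 0, with array medians of -0.94, -0.51, -0.27 and -0.02 and summed signals of 3477 to 8803 and 2620.4 to 3355. Central myelin markers had a median of -0.57, with 7 of 7 below 0, array medians of -1.52, -0.32, -0.33 and 0.11, which put array 2 level with array 3, and summed signals of 17808 to 79832 and 13548 to 14969. After normexp correction with loess the medians were -1.31 for cerebellar, -0.86 for neuronal and -0.50 for central myelin markers. With median centring they were -1.01, -0.53 and -0.30.

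The other lists had medians near 0 with the deposited ratios. Their medians were 0.05 for peripheral myelin, 0.04 for the inner ear, -0.02 for middle ear and airway epithelium, 0.11 for bone, 0.04 for skeletal muscle, 0.20 for macrophages and -0.01 for B cells. The medians of epithelium and B cells turned sign under another scaling, at 0.39 and 0.30 after normexp correction with median centring. Under that setting the medians of skeletal muscle, bone and peripheral myelin were 0.79, 0.57 and 0.57, where the median of all genes was 0.12. The array medians of skeletal muscle were -0.82, -0.54, 0.75 and 0.76, so that this list too was low on arrays 1 and 2 and high on array 4. The part that the signal of these nervous tissue markers has in the receptor ratios was not tested, and in whole tissue fewer cells of a type and less RNA per cell cannot be told apart.

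**Figure D4:**
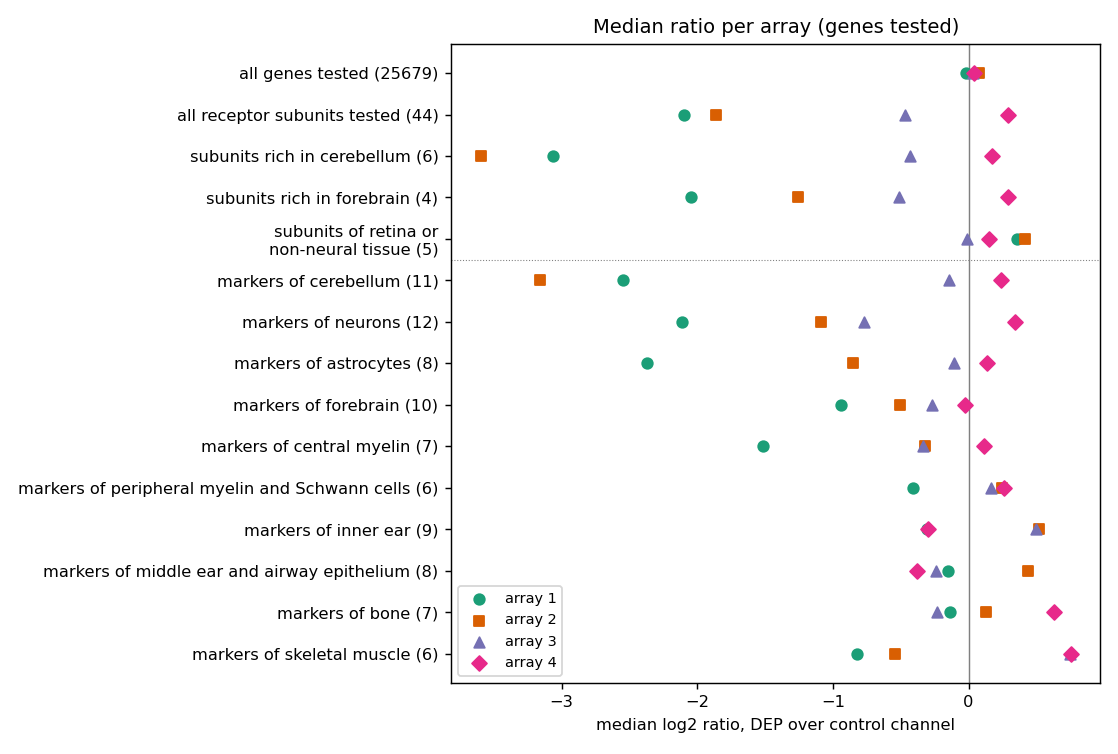
Median log2 ratio per array (channel labelled DEP over control) for all genes, for the receptor genes and 3 sets of them, and, below the dotted line, for marker lists of regions and cell types, with the number of genes tested in brackets. The receptor genes and the markers of cerebellum, neurons and astrocytes have their lowest medians on arrays 1 and 2 and lie above 0 on array 4, while all genes together stay near 0.

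The genes that make and clear the transmitters lay with the receptors. Of 18 genes tested for transmitter synthesis, uptake and vesicle loading, 16 had a mean ratio below 0, with a median of -1.07. That median was -0.91 after normexp correction with loess and -0.67 with median centring. On the lower side 10 were past 2-fold and 4 reached an unadjusted p under 0.05, where 4.37% and 8.64% of all genes did. Gad1 and Gad2, which make GABA from glutamate, had means of -1.76 ± 2.31 and -2.40 ± 1.60 (SD, n = 4). The Gad2 ratios were -2.61, -4.58, -1.07 and -1.35, below 0 on all 4 arrays. Slc32a1, the vesicle transporter for GABA and glycine, had a mean of -1.80 ± 2.47. For Slc12a5, the chloride pump that makes GABA inhibitory in adult neurons, the mean was -2.32 ± 2.63, with ratios of -3.72, -5.31, -0.48 and 0.22. The glutamate transporters Slc17a7 of vesicles and Slc1a2 of astrocytes had means of -1.45 ± 1.37 and -1.61 ± 0.98. Glul, the glutamine synthetase of glia and muscle, and Slc6a9, a glycine transporter, had means of -0.19 ± 0.45 and -0.04 ± 0.15.

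The scaffold of inhibitory synapses was nearer to 0. Of its 10 genes tested, 9 were below 0, 0 were past 2-fold and 1 reached an unadjusted p under 0.05 on the lower side, against 4.37% and 8.64% of all genes, with a median of -0.19 that was 0.09 after normexp correction with median centring. Gphn, which encodes gephyrin and serves molybdenum cofactor synthesis in all tissues, had a mean of 0.09 ± 0.50, and Gabarap, an autophagy protein, one of -0.18 ± 0.06.

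Among 25 genes tested for the anchoring and auxiliary subunits of glutamate receptors, 20 were below 0, with a median of -0.47. After normexp correction that median was -0.21 with loess and -0.33 with median centring. On the lower side 6 were past 2-fold and 7 reached an unadjusted p under 0.05, where 4.37% and 8.64% of all genes did. Cacng2 encodes stargazin, which brings AMPA receptors to the surface of granule cells, and its ratios were -3.52, -4.47, -0.99 and 0.07, with a mean of -2.23 ± 2.12. Cbln1, the cerebellin that granule cells release, had ratios of -4.02, -4.33, -0.57 and 0.22 and a mean of -2.17 ± 2.34. Dlg4, which encodes the postsynaptic scaffold PSD-95, had a mean of -1.36 ± 1.00, and Dlgap1, which binds it, one of -1.57 ± 1.38. Homer1, Grip1 and Dlg1, which many tissues express, had means of 0.02 ± 0.31, 0.16 ± 0.23 and -0.13 ± 0.22, and the neuronal genes Shank1 and Camk2a, a scaffold and a kinase of the postsynapse, also lay near 0 at -0.04 ± 0.41 and -0.23 ± 0.64. No gene of the 3 lists passed after adjustment, and Slc1a2, Slc1a3, Slc1a6 and Homer3 also stand in a marker list.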

How the data were processed

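RNA of mouse ears was hybridised to Agilent 4x44K arrays, each with a DEP extract in Cy5 and a control extract in Cy3. The authors ran Agilent Feature Extraction 10.10.1.1 (per the labels), which subtracted background and normalised the dyes within each array. They deposited processed intensity per channel and spot, and log10 ratios of Cy5 over Cy3. A second deposited table held the same log10 ratios, within 0.0166 on the log2 scale.

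The deposited log10 ratios were converted to log2. Control spots, outlier spots (164 to 274 of 43020 per array) and spots without a ratio (6179 to 8558) were left out, spots of a probe were averaged, and a probe needed 3 of 4 ratios. Where 1 array was left out, a probe needed 2 ratios. Probes were named through the RefSeq accession table of GRCm38.p6, which gave 27655 of 39429 probes a symbol. Where several probes named 1 gene, the brightest stood for it. The test was limma 3.58.1 (lmFit and eBayes, intercept only, prior degrees of freedom 1.98) in R 4.3.3, with Benjamini-Hochberg adjustment over 31577 probes and thresholds of 2-fold and 0.05. A signal counted as measured where the software called it well above background. The 4 arrays limit the precision. On simulated ratios of the same 31577 probes, with 200 changed, 54 of 100 probes changed by 2 (log2) and 1 of 100 changed by 1 were called, with 4 false calls of 59. The simulated noise was normal, independent between arrays and of equal spread on each, with variances drawn from limma's prior. The real ratios were correlated between arrays and unequal in spread, so these shares may not hold for the receptor genes.

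Values on every array were given for receptor genes detected in all extracts that are reported here, for Grm5, Grik2 and Gabbr2, and for genes past 2-fold with 1 channel measured throughout. Gabra6 and other genes named beyond this rule were chosen after their values were seen. The members, the 12 marker lists and the 3 lists of pathway genes were chosen with earlier results of these data known. Bglap, Cd68 and Slc6a5 of these lists matched no probe. The number of columns left without a sample was 0. Some genes of the receptor families and lists were counted but their values are not reported here. Alternatives covered the background correction, scaling, filters, probe summary, the test and each array left out.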

Additional observations from a re-analysis of the deposited data

How the results depend on the processing

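No receptor gene passed adjustment in 13 of 14 alternatives. With normexp background correction and median centring 2 did, Gabbr2 at -0.89 (limma, adjusted p = 0.0406) and Grin3a at -0.60 (adjusted p = 0.0490), where 2988 genes in all passed and the median of all genes was 0.12. The cause was not tested. The count past 2-fold on the lower side, 20 with 4.37% of all genes, was 10 after normexp with loess (1.44%) and 9 when median centring replaced loess (0.857%). It was 12 when both channels had to be measured on all arrays (2.45%) and 0 when 2-fold was required on every array. With 1 array left out it was 14 to 33 (3.66% to 6.10%). The 2 on the higher side were 0 under either normexp setting, either filter on measured signals and the rule of every array, and 0 to 2 with 1 array left out. Filters test fewer genes by construction. The 12 genes with a lower ratio and an unadjusted p under 0.05 (8.64% of all genes) were 6 under either filter (6.60% and 7.16%). With least squares without moderation they were 3, near the share of all genes (6.10%). With 1 array left out they were 4 to 30 (5.67% to 9.98%). The 3 with a higher ratio were 1 under either normexp setting, 0 under either filter, and 2 to 3 with 1 array left out. The median of metabotropic receptors was -1.08 with the mean of a gene's probes and -1.12 to -0.23 with 1 array left out. Left out in turn, the arrays gave medians of -1.51 to -0.62 for all receptor genes, -2.01 to -0.64 for GABA, -0.86 to -0.08 for glycine and -1.45 to -0.73 for ionotropic glutamate receptors. For the sets by place they were -2.37 to -1.23 in the cerebellum, -1.46 to -0.41 in the forebrain, -0.94 to -0.07 in brainstem and spinal cord and 0.13 to 0.31 in retina and tissues outside the nervous system. The count past 4-fold between control extracts, 10, was 11 without scaling and 7 to 10 with 1 array left out, both chosen after seeing the data, and it was 0 for DEP extracts each time. Of 344 values of the 25 named genes under alternatives, 3 changed sign: Grm2 to -0.024 under normexp with loess, Gabrr2 to -0.021 without array 1 and Gabrp to 0.22 without array 3. No paired analysis was possible because there is 1 group of arrays, and each ratio already sets a DEP extract against the control extract on its array. Signal over background limits the 31 genes not detected in all extracts.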
